A study of Mus musculus with 2 samples.

Results

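The genes described here are 8 carbonic anhydrase genes of the mouse (Car1, Car2, Car3, Car4, Car5b, Car8, Car12 and Car13), followed in 2 cultures of bone marrow cells that differed in the form of EVI1 they carried. They were taken by name, and each was found in the deposited table by the Ensembl ID that carries its symbol on GRCm38. They are 8 of the 55487 gene IDs of the table and 8 of the 16 genes symbolled as carbonic anhydrases. The table holds 1 library for each culture. Lineage-negative cells from the femora, tibiae and pelvis of C57BL/6 mice, wild type by the series' description, were transduced with a retroviral vector that overexpresses HA-tagged EVI1 from pMYs-IG. In the EVI1-WT culture the vector carried the wild-type form (pMYs-IG_3xHA-EVI1-WT), and in the EVI1+18 culture it carried the +18 form (pMYs-IG_3xHA-EVI1+18), a product of aberrant splicing. In both, 10000 cells sorted for GFP 3 days after infection were grown in the colony medium MethoCult M3434 for about 3 weeks. Both cultures overexpressed EVI1 and kept their own Mecom gene, and the labels give neither the age, sex and number of the donor mice nor how the colonies were pooled. The question of the comparison is how transcription under the aberrant form differs from that under the wild-type form.

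Carbonic anhydrases convert carbon dioxide and water into bicarbonate and a proton and back. Most are zinc enzymes, in which a zinc ion held by histidines activates the water molecule. The family is divided by where its members work. Cytosolic forms load and unload carbon dioxide in red cells and supply protons to acid-secreting cells such as the osteoclast, membrane-bound forms act on the outer face of the cell, and a mitochondrial form supplies bicarbonate for biosynthesis. Related proteins without enzyme activity bind other partners. In blood, CAI and CAII are the abundant forms of the red cell.

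Levels are given as scaled CPM, the usual CPM after TMM scaling of the library totals, and per kilobase of exon where genes are compared with each other. With 1 library for each culture, none of the differences could be set against replicates and no p-value is given. Each ratio of EVI1+18 over EVI1-WT has a 95% exact interval that covers counting error only, and a gene is called higher or lower when that whole interval lies past 2-fold. In these bulk libraries, fewer cells of a type and less RNA per cell cannot be told apart. Of the 13183 genes tested, those that reached 1 scaled CPM in either culture, 5.05% were higher and 5.1% lower by that rule, and the median log2 ratio was 0.01.

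Of the 8 members, Car1 and Car2 were higher in EVI1+18, Car8 and Car12 were lower, and Car3, Car4, Car5b and Car13 were neither. Car4 was under the filter of 1 scaled CPM in both libraries, and of the other 7, Car1 and Car3 passed it through EVI1+18 alone and Car8 through EVI1-WT alone. The count of 4 called members is therefore a description of single genes, to be read beside the shares of 5.05% and 5.1% over all genes tested.

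The 4 coding stretches below belong to Car1, Car2 and Car12, which were called, and to Car13, the neighbour of Car1 and Car2 that was not, and are shown because they carry the zinc site that makes these members enzymes. They run 5′ to 3′ on the coding strand, spliced across 1 intron, from the codon of the first zinc-binding histidine to that of the third. They were read from GENCODE M21 transcripts on GRCm38, and each span includes the intron. Capitals mark the 3 zinc-site codons.
Car1, chr3:14770898-14776289: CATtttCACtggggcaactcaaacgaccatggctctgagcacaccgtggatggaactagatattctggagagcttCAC
Car2, chr3:14895069-14895540: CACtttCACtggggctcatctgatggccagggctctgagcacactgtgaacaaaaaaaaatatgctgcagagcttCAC
Car13, chr3:14650706-14654889: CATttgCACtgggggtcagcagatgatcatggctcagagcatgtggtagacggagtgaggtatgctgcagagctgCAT
Car12, chr9:66747647-66750935: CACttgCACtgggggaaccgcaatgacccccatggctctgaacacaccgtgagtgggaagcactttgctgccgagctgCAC
In Car1, Car2, Car12 and Car13 all 3 marked codons are CAC or CAT, which encode histidine. The stretches were found by a protein pattern with histidine set at these 3 places, so this was fixed by the search. Over this stretch of 78 bases Car2 shared 83.3% of its bases with Car3, 75.6% with Car1 and 69.2% with Car13.

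The cytosolic enzymes Car1, Car2, Car3 and Car13 lie together on chromosome 3 and held most of the reads. Car2 (ENSMUSG00000027562; GRCm38 chromosome 3, 14886273 to 14900770, plus strand) encodes the fast cytosolic form of red cells, macrophages and osteoclasts. EVI1-WT had 833 counts and EVI1+18 had 6056, or 41.6 and 282 scaled CPM. The EVI1+18 library was the high one, with a ratio of 6.79 (6.31 to 7.30). In both libraries Car2 had the highest level per kilobase of the family, at 17.2 (EVI1-WT) and 117 (EVI1+18) scaled CPM per kilobase. Among all genes tested these levels stood at percentiles 75.9 and 96.8.

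Car1 (ENSMUSG00000027556; chromosome 3, 14766216 to 14808368, minus strand), the slower cytosolic form that is abundant in mature red cells, had 7 reads in EVI1-WT and 457 in EVI1+18. These are 0.350 and 21.3 scaled CPM, a ratio of 60.9 with an interval of 29.3 to 152. Only 69 of the 13183 genes tested had a higher ratio. Its level per kilobase moved from percentile 5.46 of the genes tested in EVI1-WT to 75.8 in EVI1+18. The width of the interval comes from the 7 counts of EVI1-WT. The ratio of Car1 was 8.98 times that of Car2, with an exact interval of 4.30 to 22.5 for this ratio of ratios, so the difference between the 2 genes was beyond counting error. The gene has transcripts from more than 1 start, and counts per gene do not separate them.

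Car3 (ENSMUSG00000027559; chromosome 3, 14863512 to 14872523, plus strand) encodes the low-activity form best known from muscle and fat. EVI1-WT had 13 counts and EVI1+18 had 47, or 0.649 and 2.19 scaled CPM. Its ratio of 3.37 had an interval of 1.80 to 6.80, which excludes equality but not a 2-fold difference. At this depth its ratio could not be told from that of Car2, whose ratio was 2.01 times larger with an interval of 0.994 to 3.80. Car3 stayed a minor member, at percentile 12.8 of the genes tested in the library where it was higher.

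Car13 (ENSMUSG00000027555; chromosome 3, 14641727 to 14663002, plus strand), a widely expressed cytosolic form, had 720 reads in EVI1-WT and 930 in EVI1+18. The levels were 36.0 and 43.3 scaled CPM and the ratio 1.21 (1.09 to 1.33). The libraries were thus close for this gene, with an interval that leaves out both equality and a 2-fold difference. The ratio of Car2 was 5.63 times that of Car13 (4.98 to 6.37), and the ratio of Car3 was 2.80 times that of Car13 (1.48 to 5.68).

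**Figure D1:**
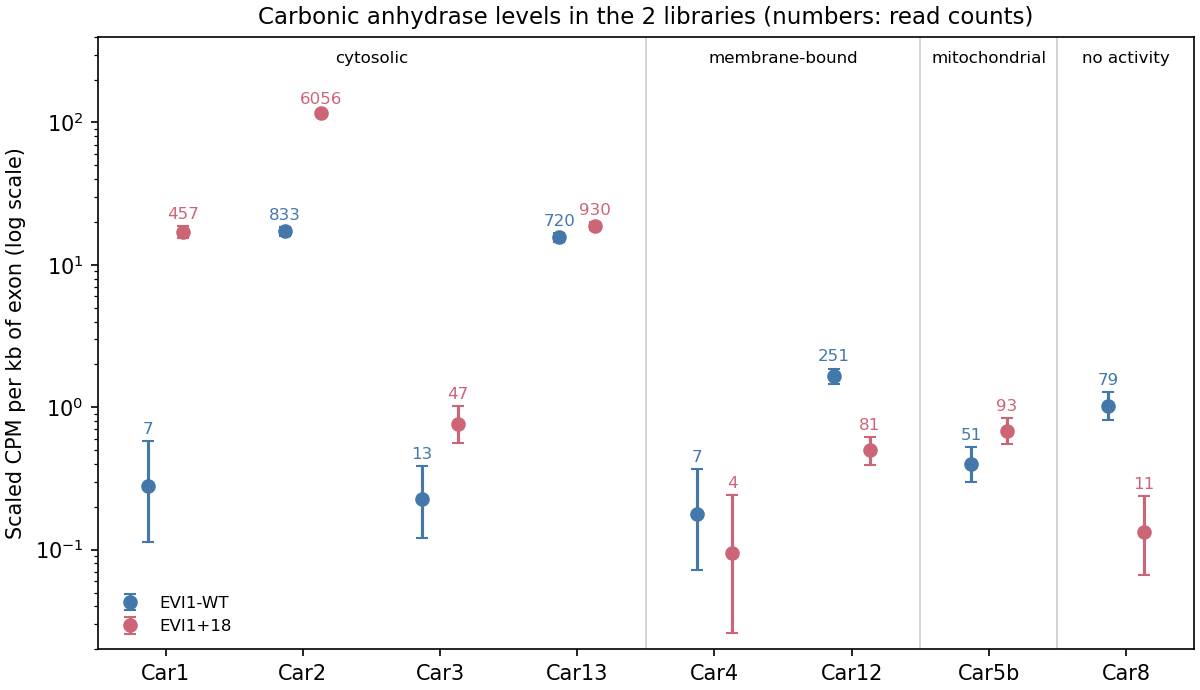
Level of each of the 8 genes in the EVI1-WT library (blue) and the EVI1+18 library (red), in scaled CPM per kilobase of exon on a log scale, with 95% Poisson intervals of the counts as bars and the counts as numbers. Car1 goes from 7 to 457 counts and Car2 from 833 to 6056, Car13 stays close at 720 and 930, and Car12 and Car8 are lower in EVI1+18.

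The membrane-bound members were scarce. Car12 (ENSMUSG00000032373; chromosome 9, 66713686 to 66766845, plus strand) encodes a transmembrane enzyme with its active site outside the cell. EVI1-WT had 251 counts and EVI1+18 had 81, or 12.5 and 3.78 scaled CPM, and was 3.32-fold lower in EVI1+18 (2.57 to 4.32). Car4 (ENSMUSG00000000805; chromosome 11, 84957786 to 84966044, plus strand), which is anchored to the membrane by a lipid, had 7 reads in EVI1-WT and 4 in EVI1+18. These were 0.350 and 0.186 scaled CPM, beside 0.150 and 0.140 for the 3 counts that a count of 0 allows. Its ratio of 0.533 had an interval of 0.114 to 2.10, so no difference was detectable at this depth.

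Car8 (ENSMUSG00000041261; chromosome 4, 8143362 to 8239041, minus strand) encodes the protein without enzyme activity, known from the cerebellum as a partner of the inositol trisphosphate receptor. There were 79 reads in EVI1-WT and 11 in EVI1+18, or 3.94 and 0.513 scaled CPM. Its level was 7.69-fold lower in EVI1+18 (4.08 to 16.0), and 189 of the genes tested had a lower ratio. The ratio of Car12 was 2.32 times that of Car8 (1.15 to 5.06), so Car8 was the further apart of the 2 lower members by a margin just beyond counting error.

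Car5b (ENSMUSG00000031373; chromosome X, 163976822 to 164027997, minus strand) encodes the mitochondrial enzyme of many tissues. There were 51 reads in EVI1-WT and 93 in EVI1+18, or 2.55 and 4.33 scaled CPM. The ratio of 1.70 (1.20 to 2.44) lay above equality and was not past 2-fold. Its ratio was 1.41 times that of Car13, with an interval of 0.978 to 2.06 that includes no difference between the 2 genes.

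**Figure D2:**
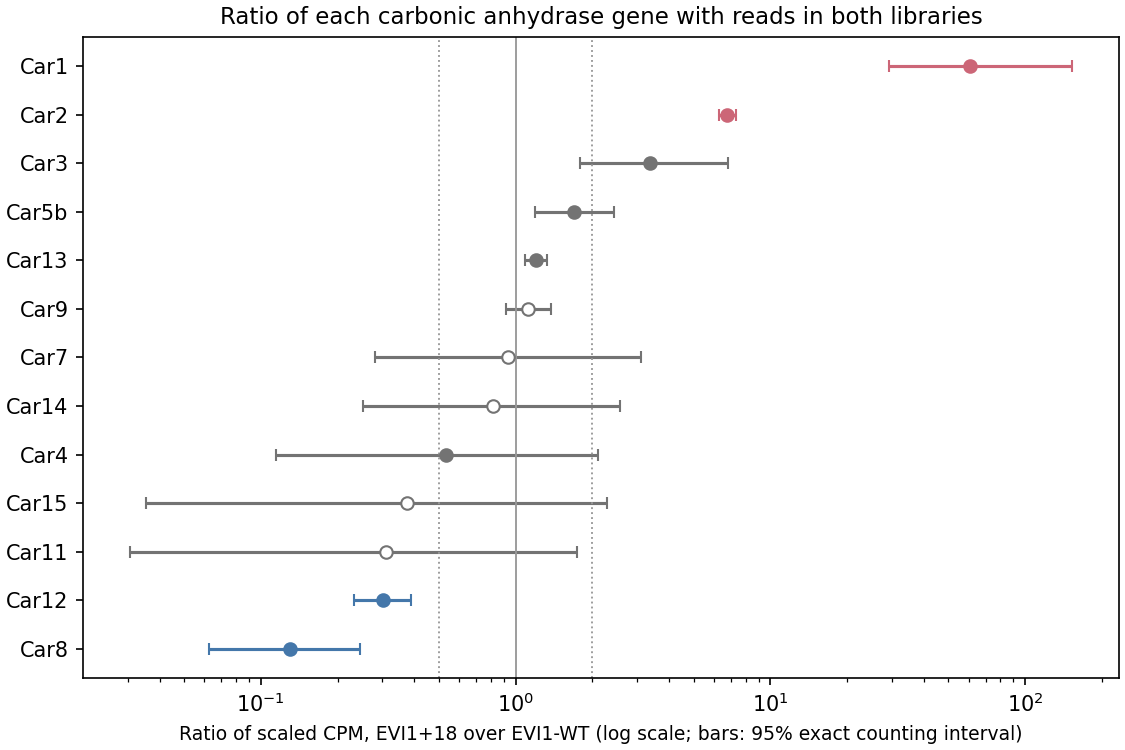
Ratio of scaled CPM in EVI1+18 over EVI1-WT on a log scale with 95% exact counting intervals, for the carbonic anhydrase genes with reads in both libraries (filled points: the 8 genes described, open points: others of the family). Dotted lines mark 2-fold, and the whole interval lies past them for Car1 and Car2 (red) and for Car12 and Car8 (blue).

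The order of the levels per kilobase differed between the cultures. In EVI1-WT, Car2 at 17.2 and Car13 at 15.6 scaled CPM per kilobase of exon led. By that length they could not be told apart, with a level ratio of 1.10 (0.993 to 1.22). Per kilobase of the longest transcript Car2 and Car13 were further apart, at 23.3 and 15.6. Without length they stood at 41.6 and 36.0 scaled CPM, and no interval was computed for either alternative. Among the members they were followed by Car12 at 1.65 and Car8 at 1.02, which did differ, with a level ratio of 1.61 (1.25 to 2.10). From Car5b at 0.401 downwards, Car5b, Car1, Car3 and Car4 were each within counting error of the next. In EVI1+18, Car2 stood 6.18-fold above Car13 (5.77 to 6.63). Car13 at 18.9 and Car1 at 17.1 scaled CPM per kilobase could not be told apart there, with a level ratio of 1.10 (0.987 to 1.24). Car3 at 0.765 and Car5b at 0.682 could not either (1.12, interval 0.772 to 1.61). Per kilobase of the longest transcript, Car13 and Car1 stood at 18.9 and 17.8 in EVI1+18, and Car3 and Car5b at 1.30 and 1.26. Without length the values were 43.3 and 21.3 scaled CPM for Car13 and Car1, and 2.19 and 4.33 for Car3 and Car5b. For these alternatives no interval was computed. Car12 at 0.497 per kilobase of exon was above Car8 at 0.133 (3.73, interval 1.98 to 7.78).

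Summed over the 16 genes of the family, the level was 40.9 scaled CPM per kilobase in EVI1-WT and 159 in EVI1+18, a ratio of 3.89. The 8 members made up 89.4% of that sum in EVI1-WT and 97.2% in EVI1+18. Car2 took 42.0% of the family level in EVI1-WT and 73.2% in EVI1+18. The share of Car13 was 38.2% in EVI1-WT and 11.8% in EVI1+18, although its own level was 1.21 times higher. Car1 went from 0.684% to 10.7%, and Car12 from 4.03% to 0.312%. Among the 1961 reads of the 8 members in EVI1-WT, those of Car2 were 42.5% (exact binomial interval 40.3 to 44.7), against 78.9% (77.9 to 79.8) of the 7679 in EVI1+18.

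**Figure D3:**
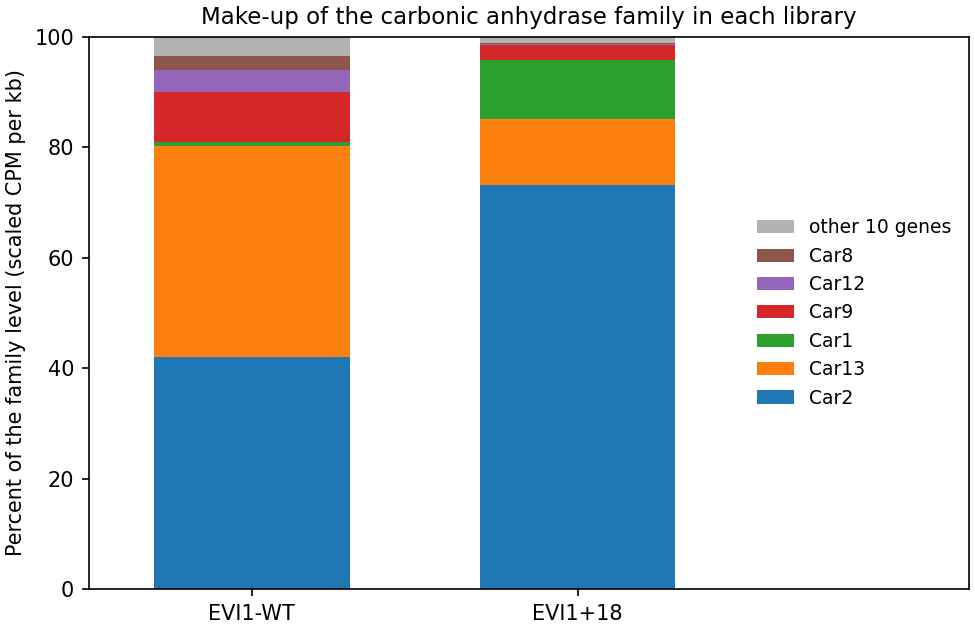
Percent of the summed family level, in scaled CPM per kilobase of exon, in the EVI1-WT and the EVI1+18 library. Car2, Car13, Car1, Car9, Car12 and Car8 are drawn separately and the remaining genes of the family together. Car2 and Car13 share most of the bar in EVI1-WT at 42.0% and 38.2%, and Car2 alone takes 73.2% in EVI1+18.

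Of the other 8 genes of the family, Car9 held most of the level. Car9, the membrane enzyme best known as a target of the hypoxia response, had 173 reads in EVI1-WT and 208 in EVI1+18, or 8.64 and 9.69 scaled CPM. At 3.75 and 4.21 scaled CPM per kilobase of exon it held 9.16% of the family level in EVI1-WT and 2.64% in EVI1+18. By that length it was above Car12 in both libraries. Per kilobase of the longest transcript it was above Car12 in EVI1-WT by less, at 4.27 against 3.37. Without length Car12 was above it there, at 12.5 against 8.64 scaled CPM. Car9 was alone among the 8 in passing the filter, and its ratio of 1.12 had an interval of 0.913 to 1.38 that includes equality. Car5a, Car6, Car7, Car10, Car11, Car14 and Car15 had 0 to 8 counts in a library.

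The chromosome 3 genes stand in the order Car13, Car1, Car3, Car2 over 259.0 kb, with gaps of 103 kb, 55.1 kb and 13.7 kb between them. Their ratios of 1.21, 60.9, 3.37 and 6.79 did not follow the order along the chromosome. As one sum the 4 genes gave 1573 reads in EVI1-WT and 7490 in EVI1+18, a ratio of 4.44 (4.21 to 4.70). Car2 supplied 833 and 6056 of these reads, so the sum describes no shared change. The other 4 members, on chromosomes 4, 9, 11 and X, summed to 388 and 189 counts, a ratio of 0.455 (0.380 to 0.542). Of these, Car12 supplied 251 and 81, and Car5b went the other way at 1.70 (1.20 to 2.44). Of the 11 protein-coding genes within 500 kb of the cluster, its 4 members included, 8 passed the filter. Car1 and Car2 were the 2 called higher and 0 were called lower. On the Car13 side, Lrrcc1 had a ratio of 1.26 (1.14 to 1.39), E2f5 of 0.846 (0.676 to 1.06) and 1810022K09Rik of 1.12 (1.03 to 1.21). On the Car2 side, Sirpb1a, a signal-regulatory receptor gene, had 48 and 102 counts and a ratio of 1.98 (1.39 to 2.86).

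**Figure D4:**
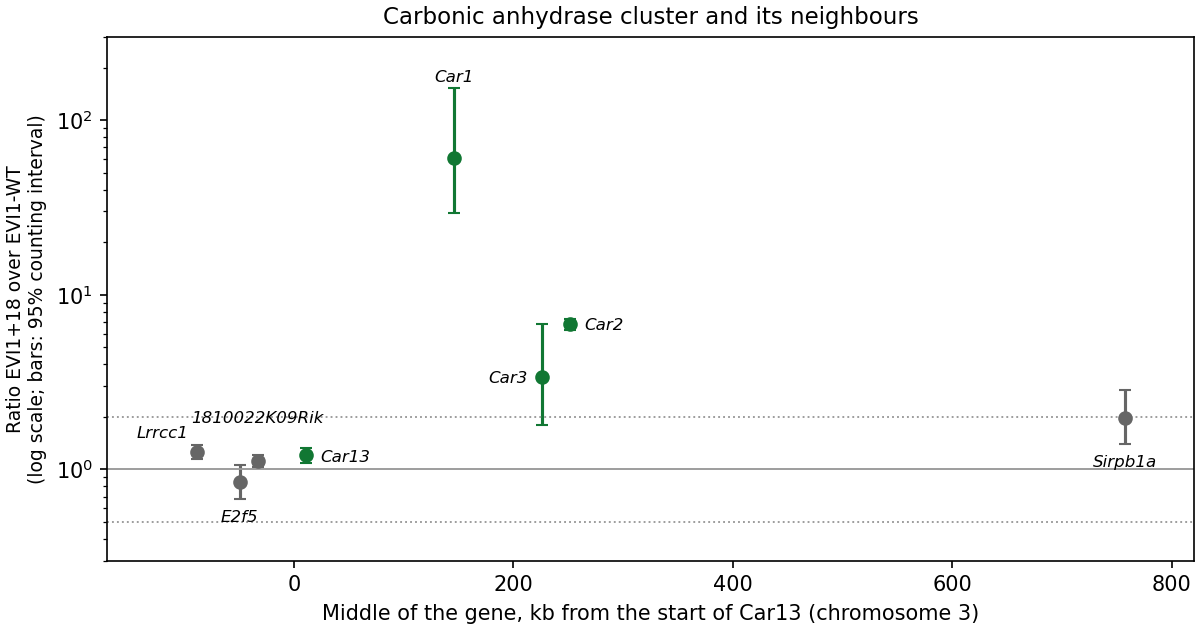
Ratio of EVI1+18 over EVI1-WT on a log scale, with 95% counting intervals, for the tested protein-coding genes around the chromosome 3 cluster, placed by the distance in kb of their middle from the start of Car13 (green: carbonic anhydrases, grey: other genes). Car13 at 1.21 lies with the genes before it, and Car1 at 60.9 and Car2 at 6.79 stand above 2-fold.

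Genes of near-identical sequence could take reads from some members. The pseudogene Gm5843 holds 13.4% of the 50-base words of Car1 transcripts, and it had 0 counts in both libraries. For Car2, Car3, Car4, Car12 and Car13, 0 words occurred in another gene. The shares were 3.79% for Car5b and 0.0789% for Car8, and no word was common to a pair of members (0). No annotated gene shares exon bases with a member (0 bases), so reads of an overlapping gene on the other strand were not an issue in this annotation.

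Genes that move bicarbonate, protons, water and gases were described by the same rule, beside 5.05% higher and 5.1% lower over all genes tested. Of 18 anion and bicarbonate exchangers, 9 were tested, of which 1 was higher, 1 lower and 7 neither. Their median log2 ratio was -0.35, beside 0.01 over all genes. The higher one was Slc4a1, band 3, which carries the bicarbonate made by red-cell carbonic anhydrase out of the cell, with 30 and 146 counts and a ratio of 4.54 (3.05 to 6.97). The lower one was Slc26a3, a chloride-bicarbonate exchanger of the gut, with 169 and 7 counts, 25.9-fold lower (12.3 to 65.3). Slc26a3 passed the filter through EVI1-WT alone. Of 7 gas and water channels 4 were tested, with 2 higher, 0 lower and a median of 2.90. The higher ones were the water channel Aqp1, with 5 and 1615 counts and a ratio of 301 (129 to 930), and the Rh-associated ammonium channel Rhag, with 77 and 1725 counts and a ratio of 20.9 (16.6 to 26.6). The summed level of the 7 genes, in scaled CPM, was lower in EVI1+18, where it reached 435, a ratio of 0.871. The most abundant was the glycerol and water channel Aqp9, with 9909 and 5969 counts and a ratio of 0.562, which was not past 2-fold. Aqp1 and Rhd (10 and 33 counts) passed the filter through EVI1+18 alone, and Aqp3, with 11 and 1 counts, did not pass. Aqp9, Rhd and Aqp3 were named after their values were seen.

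Of 15 genes of proton and lactate transport, not all of them transporters, 11 were tested, with 0 higher, 1 lower and a median log2 ratio of -0.20. The lower one was the lactate exporter Slc16a3, with 4320 and 1171 counts, 3.95-fold lower (3.70 to 4.22). Of 23 subunits of the vacuolar proton pump, which acidifies lysosomes and, beside CAII, the bone surface under osteoclasts, 19 were tested, with 1 higher, 0 lower and a median of -0.10. The higher one was Atp6v0d2, a subunit of osteoclasts and macrophages, with 598 and 1944 counts and a ratio of 3.03 (2.77 to 3.33). Of 18 hypoxia response genes 16 were tested, with 0 higher, 1 lower and a median of -0.32. The lower one was Ndrg1, with 3140 and 1104 counts, 3.05-fold lower (2.84 to 3.27). The transporter, pump and hypoxia lists thus had 1 called gene each. Those calls describe single genes, to be read beside 5.05% higher and 5.1% lower over all genes tested. The ratio of Car2 was above that of all 9, 11, 19 and 16 tested genes of the exchanger, transporter, pump and hypoxia lists. Those of Car8 and Car12 were below all 19 pump genes and all 16 hypoxia genes. These places are by point value. The counting interval of Car2 overlapped that of Slc4a1, and the interval of Car12 held that of Ndrg1.

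Markers of blood lineages differed between the same libraries. Slc4a1 and Rhag, given above, are also in the erythroid list. Of 21 tested erythroid markers 19 were higher and 0 lower. The median lay at 3.64 on the log2 scale, and their levels summed to 1804 and 13809 scaled CPM. Icam4 had 0 counts in both. The globin genes Hbb-bt, at 6.33 (6.20 to 6.46), and Hba-a1, at 10.8 (10.5 to 11.1), had ratios on either side of that of Car2. The interval of Hbb-bt overlapped that of Car2 (6.31 to 7.30). The ratio of Car1 was above those of all 21 markers, and the ratio of Car2 was below those of 14 and above those of 7. Of 12 tested megakaryocyte and platelet markers 10 were higher and 0 lower, with a median of 3.49 and sums of 744 and 2036 scaled CPM. By point value, the ratio of Car1 was below those of 3 of these 12 and above those of 9. That of Car2 was below 9 and above 3. Tubb1 and Gp1bb were among the markers at 0 counts in EVI1-WT, and Gp6 was at 0 in EVI1+18. The platelet chemokines Pf4, at 70.2 (57.6 to 86.5), and Ppbp, at 16.1 (14.0 to 18.6), had the highest levels per kilobase in EVI1+18. In EVI1-WT the integrin genes Itga2b and Itgb3, named after their values were seen, were above both, at 82.0 and 27.6 scaled CPM per kilobase against 6.86 and 9.50. Itga2b led both libraries in scaled CPM, at 447 and 718, and its ratio of 1.61 was not past 2-fold. Of 8 tested macrophage markers 4 were higher and 1 lower, with a median of 1.30 and sums of 813 and 1730 scaled CPM. The ratio of Car1 was above those of all 8, and that of Car2 was below 2 and above 6. C1qa and Cd5l had 0 counts in both libraries, C1qc in EVI1-WT and Vcam1 in EVI1+18. Named after their values were seen, the higher ones were Gpnmb, Mrc1, Mertk and Fcgr1 and the lower one was Adgre1. Per kilobase, Gpnmb, at a ratio of 5.02 (4.87 to 5.18), and Cd68, at 0.802 (0.769 to 0.836), led in EVI1+18. In EVI1-WT Adgre1, at 75.8 scaled CPM per kilobase, was above Gpnmb at 37.1 and below Cd68 at 192.

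Among markers of granulocytes and mast cells more were lower than higher. Of 16 tested mast cell and basophil markers 8 were lower, 3 higher and 5 neither, at a median of -1.17 on the log2 scale and sums of 6268 and 1290 scaled CPM. Mrgprb1 had 0 counts in both, and Kit, Mcpt1 and Prss34, named after their values were seen, were the higher ones. Cpa3 was 12.3-fold lower (11.9 to 12.7) and Mcpt8 10.7-fold lower (9.96 to 11.4). Of 7 tested eosinophil markers 6 were lower and 1 higher (Siglecf, named after its values were seen), with a median of -1.93 and sums of 873 and 177 scaled CPM, and Ear1 was at 0 counts in EVI1+18. Epx was 7.49-fold lower (7.06 to 7.95) and Prg2 4.63-fold lower (4.39 to 4.88). Of 14 tested neutrophil markers 8 were lower, 0 higher and 6 neither, with a median of -1.51, sums of 4845 and 1509 scaled CPM and no marker at 0. S100a9 was 2.91-fold lower (2.85 to 2.98) and S100a8 2.82-fold lower (2.75 to 2.90). The part of these shifts in lineage markers in the ratios of the carbonic anhydrase genes was not tested.

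**Figure D5:**
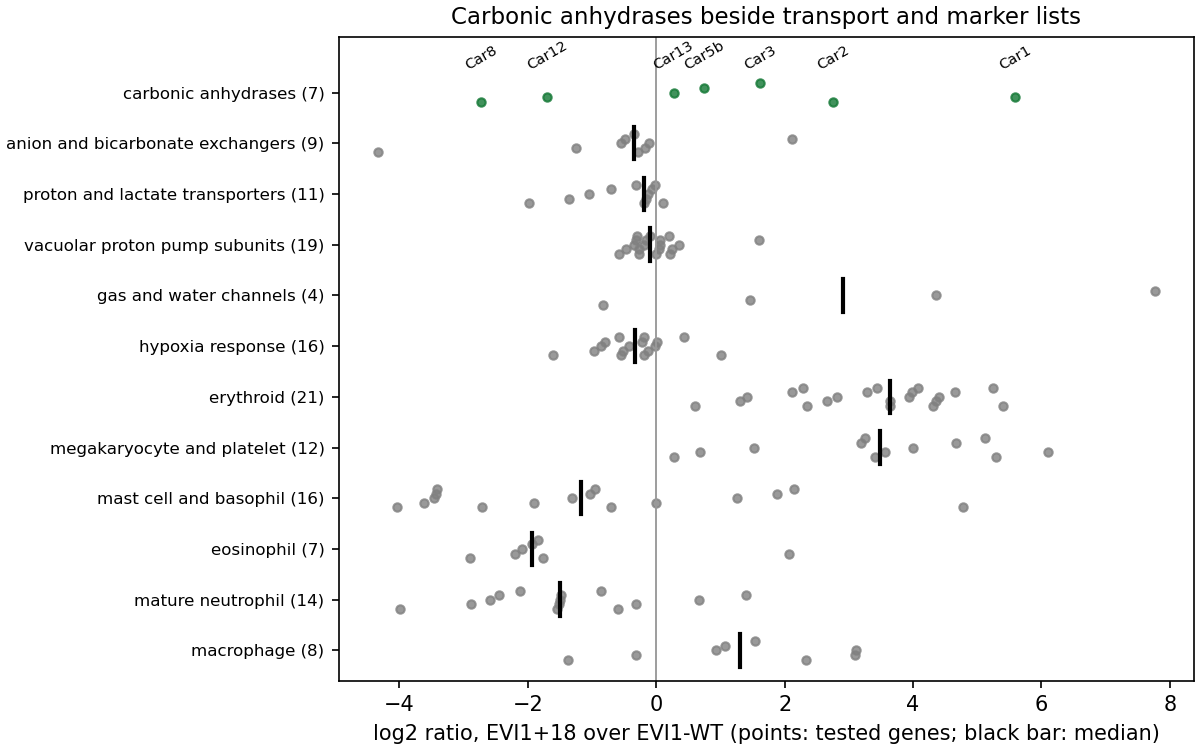
log2 ratio of EVI1+18 over EVI1-WT for the 7 tested carbonic anhydrase genes (green, named) and for the tested genes of each transport and marker list (grey points; black bars are list medians; number of tested genes in parentheses). Erythroid and platelet markers have medians of 3.64 and 3.49, the eosinophil and neutrophil medians are -1.93 and -1.51, and the transport and hypoxia lists other than the gas and water channels have medians between -0.35 and -0.10.

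Protein-coding genes with levels most like those of Car2 in the 2 libraries were Parvb, Cpox and Mfge8, at distances of 0.37, 0.37 and 0.46 on the log2 scale. Parvb, an adaptor of integrin adhesions, had 668 and 5345 counts. Cpox, coproporphyrinogen oxidase of haem synthesis, had 1075 and 5878 counts and a ratio of 5.10 (4.78 to 5.45). Mfge8, a bridging protein for the uptake of dying cells, had 1039 and 4787 counts. A likeness over 2 libraries is a description of levels only.

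The libraries held 20480447 counts over 21013 genes in EVI1-WT and 20981903 over 21037 genes in EVI1+18. Mecom, the gene of EVI1, had 3612 and 4481 counts, a ratio of 1.16 (1.11 to 1.21). Reads of the cells' own gene and any vector reads that mapped to it fall on the same ID. Neither the part from the vector nor the form is resolved, so this value does not check the labels.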

How the data were processed

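RNA from the 2 cultures was sequenced, and the authors deposited whole-number read counts per Ensembl gene, not normalized. The submitters' processing notes name GRCm38, featureCounts and Subread, HISAT2 2.2.1, edgeR and SAMtools. The annotation, strand and multi-mapping settings were not given in the sources used here. Of 55487 IDs, 55227 matched GENCODE M21, which gave symbols, exon lengths and coordinates. No column was left unmapped (0).

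Libraries were scaled by TMM in edgeR 4.0.16 (R 4.3.3). Each ratio has a 95% Clopper-Pearson interval (scipy 1.17.1), and ratios of ratios have conditional exact intervals. No molecular identifiers are recorded, so reads are not independent molecules, and intervals and floors (3 counts) cover counting error only. Log2 ratios used a prior count of 2. With 1 library per group edgeR's quasi-likelihood test has no degrees of freedom and none was run. The code was tested on simulated data.

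The members and lists were chosen with earlier results of these data known. Named were all carbonic anhydrases, up to 2 called genes per direction of each transport list by conservative fold (the bound nearest 1), the 2 genes of each marker list with the highest level per kilobase in either library, and the 3 genes nearest to the leading member in log2(scaled CPM + 0.1). The cluster's neighbours were taken by position. Reference protein sequences were not used here, and the coding stretches were found in translated GENCODE M21 transcripts. Promoter windows, matched for 3 of the 8 members, are not described. Alternatives were other scalings (DESeq2 1.42.0 size factors among them), filters, fold bounds, prior counts and gene lengths.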

Additional observations from a re-analysis of the deposited data

How the results depend on the processing

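All 8 ratios stayed within their counting intervals under the 3 other scalings (total counts, DESeq2 size factors, and totals without adult globins), and Car1, Car2, Car8 and Car12 kept their calls under these and without a filter. A bound of 4-fold left 1 lower member (Car8), 1.5-fold added Car3 to the higher ones, and a filter at 5 scaled CPM left 1 lower member (Car12), since Car8 was no longer tested. Over all genes, 1093 were higher and 1290 lower at 1.5-fold and 294 and 218 at 4-fold, and 431 and 468 with the filter at 5 scaled CPM. Over the 60 tested genes of the transport and hypoxia lists and of the family outside the members, 5 were higher and 10 lower at 1.5-fold, and 2 and 1 at 4-fold, beside 4 and 3 at 2-fold. With prior counts of 0.5 and 5 the medians of these lists kept their sign, and that of the gas and water channels was 2.98 and 2.78. The marker medians were not computed with other prior counts. Per kilobase of the longest transcript, the family level was 50.1 in EVI1-WT and 203.7 in EVI1+18 scaled CPM. The share of Car2 was then 46.4% and 77.5%, that of Car13 31.2% and 9.26%, and that of Car1 in EVI1+18 8.76%. By reads without length, Car2 held 38.5% and 76.6%, Car13 in EVI1-WT 33.3% and Car1 in EVI1+18 5.78%. No paired analysis was possible because each group has 1 library, and none could be left out. Members with few counts (Car4, and Car1 in EVI1-WT) are limited by depth.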
